A study of Mus musculus with 2 samples.

Results

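In bone marrow-derived macrophages that had received no IL-4, 4953 PHLPP1 CUT&Tag peaks were wide, lay far from the ends of protein-coding genes and were overlapped by no IL-4 peak. These wide distal untreated-only peaks are the intervals of the untreated list on chromosomes 1 to 19 that span 400 bp or more, that no IL-4 peak overlaps by 1 bp, and whose summit is more than 10 kb from every annotated end of a protein-coding gene. They are 3.34% of the 148348 untreated peaks on those chromosomes and belong to a series of 390010 peaks in all. Of the untreated peaks, 7487 were 400 bp or wider, 6109 of these had no IL-4 overlap and 4953 of these were also distal. Presence in the untreated list, width, absence from the IL-4 list and distance from genes chose these peaks, so these properties are described and were not tested.

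PHLPP1 is a protein phosphatase that removes an activating phosphate from the kinase AKT. CUT&Tag maps DNA near a protein: an antibody guides a transposase to the protein inside permeable cells, where the enzyme cuts nearby DNA and adds sequencing adapters. In macrophages, DNA far from gene starts holds enhancers, which are bound by lineage factors such as PU.1, C/EBP and AP-1, alongside long stretches of intron and of gene desert.

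The study compared 2 libraries, 1 per group. The cells of both groups were wild-type macrophages, per the series design, grown from mouse bone marrow with M-CSF at 20 ng/ml, the growth factor of the lineage. The untreated group received no further cytokine, and the IL-4 group received IL-4, the cytokine of alternative activation, at 20 ng/ml for 4 h. Phlpp1-deficient cells, which the treatment protocol also mentions, are not analysed here. The labels give neither the number of animals behind a library nor their age. With 1 library in each group no difference between the groups has a replicate check, no test was made and no p-value is given. Intervals on shares (Wilson, 95%) and on fragment numbers and densities (exact Poisson, 95%) cover counting error only.

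The untreated list held 149349 peaks and the IL-4 list 240661. At a summit the local background was never under 0.936 fragments without IL-4 or under 0.643 with it, and the quotient of these floors was 1.46. A peak list holds no expression, so the macrophage label cannot be checked by marker level. Peaks within 1 kb of a gene end stood at 1 of 10 macrophage genes in the untreated list (Fcgr1, the high-affinity Fc receptor, with 4 fragments) and at 6 of 10 in the IL-4 list, against 23.96% and 51.4% of the 20661 protein-coding genes on chromosomes 1 to 19. Csf1r, the M-CSF receptor gene, Adgre1, Itgam and Lyz2 had no gene-end peak in either list.

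Sequence was available for the 300-base windows around RefSeq transcript starts (250 bases before the start and 50 after, GRCm38.p6, the build named mm10 in the submitters' notes), and 20 of the 4953 peaks (0.404%, 0.262 to 0.623) overlapped such a window. These are starts of long non-coding RNAs (lncRNAs) and starts inside protein-coding genes that lie over 10 kb from the gene's outer ends. Of the 20 peaks, 5 overlapped the window of a protein-coding transcript and 16 that of a lncRNA, with 1 peak overlapping both. Their summits had 4 to 9 fragments, with a median of 7, and 14 of the 20 summits were within 200 bp of the start site. Sequences are shown for the 5 coding starts and for the lncRNA start nearest to a summit, read 5′ to 3′ along the gene. CpG dinucleotides are in capitals, since CpG content was one of the values that differed between these windows and those under IL-4-only peaks. The window of Prkar1b, a regulatory subunit of protein kinase A, is chr5:139129703-139130002 on the minus strand, and that of Slc41a3, a magnesium transporter, is chr6:90618996-90619295 on the plus strand. Kcnip4, which encodes a protein partner of potassium channels, has its window at chr5:49285610-49285909 on the minus strand. Sox6, a transcription factor, has its window at chr7:115846091-115846390 on the minus strand. That of Akap1, an anchoring protein for protein kinase A at mitochondria, is chr11:88851454-88851753 on the minus strand, and that of the lncRNA LOC115487393 is chr10:61498710-61499009 on the minus strand.
Prkar1b: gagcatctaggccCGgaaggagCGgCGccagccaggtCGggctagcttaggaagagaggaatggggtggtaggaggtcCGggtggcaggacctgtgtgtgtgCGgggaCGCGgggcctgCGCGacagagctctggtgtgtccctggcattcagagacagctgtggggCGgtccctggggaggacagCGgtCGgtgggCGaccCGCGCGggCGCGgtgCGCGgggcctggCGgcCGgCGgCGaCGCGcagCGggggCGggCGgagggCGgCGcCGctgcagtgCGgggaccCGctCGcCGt
Slc41a3: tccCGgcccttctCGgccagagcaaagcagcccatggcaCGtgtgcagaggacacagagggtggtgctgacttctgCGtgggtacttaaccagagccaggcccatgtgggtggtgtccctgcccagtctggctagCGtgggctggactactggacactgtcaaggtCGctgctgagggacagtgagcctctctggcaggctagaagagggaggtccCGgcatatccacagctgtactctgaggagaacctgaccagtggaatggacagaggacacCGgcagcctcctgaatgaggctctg
Kcnip4: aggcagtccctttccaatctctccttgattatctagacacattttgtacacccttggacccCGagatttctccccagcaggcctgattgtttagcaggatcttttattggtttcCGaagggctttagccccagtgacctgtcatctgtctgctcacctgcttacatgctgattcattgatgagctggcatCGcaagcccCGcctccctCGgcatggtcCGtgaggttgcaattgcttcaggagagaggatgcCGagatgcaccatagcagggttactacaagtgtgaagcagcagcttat
Sox6: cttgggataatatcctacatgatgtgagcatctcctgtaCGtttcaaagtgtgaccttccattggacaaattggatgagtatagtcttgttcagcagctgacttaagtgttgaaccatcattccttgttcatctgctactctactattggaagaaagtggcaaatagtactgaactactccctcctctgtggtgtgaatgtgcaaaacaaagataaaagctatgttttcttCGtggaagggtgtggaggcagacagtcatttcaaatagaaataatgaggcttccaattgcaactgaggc
Akap1: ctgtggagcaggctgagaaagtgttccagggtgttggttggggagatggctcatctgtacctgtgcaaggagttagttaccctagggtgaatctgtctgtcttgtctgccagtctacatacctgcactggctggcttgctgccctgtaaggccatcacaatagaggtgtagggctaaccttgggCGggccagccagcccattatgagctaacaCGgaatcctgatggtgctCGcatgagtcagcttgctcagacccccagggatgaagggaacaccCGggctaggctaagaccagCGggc
LOC115487393: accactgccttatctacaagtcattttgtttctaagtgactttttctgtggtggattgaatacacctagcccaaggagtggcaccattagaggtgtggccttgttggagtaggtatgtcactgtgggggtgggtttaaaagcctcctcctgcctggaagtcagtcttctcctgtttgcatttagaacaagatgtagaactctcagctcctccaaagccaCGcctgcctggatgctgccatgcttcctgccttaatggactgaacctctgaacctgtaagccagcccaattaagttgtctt

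Of the 20 wide distal untreated-only peaks on promoter windows, 18 lay on windows with fewer than 10 CpG. The Prkar1b window, at 75% G and C, held 37 CpG, and it was 1 of 2 among the 20 peaks with 10 or more (10%, 2.79 to 30.1), beside that of the lncRNA Gm36894 with 10. The other coding windows printed above held 8 CpG (Slc41a3), 7 (Kcnip4), 5 (Akap1) and 2 (Sox6), and LOC115487393 held 1. Over the 20 peaks the median was 5.50 CpG, taking the richest window of each peak. The wide distal IL-4-only peaks, chosen by the same width and distance from the other list, lay on such windows at 82 of 8580 peaks (0.956%, 0.771 to 1.18), and 42 of the 82 had 10 or more CpG (51.2%, 40.6 to 61.7). Narrow distal untreated-only peaks, those under 400 bp, had 45 of 297 (15.2%, 11.5 to 19.7), and wide distal untreated peaks overlapped by an IL-4 peak had 2 of 5 (40%, 11.8 to 76.9). Over all 9009 distal windows of the table the share was 12.2%. These shares are given side by side and were not tested, since each list comes from 1 library. The sets also differed in the kind of start. Of the windows under untreated-only wide peaks 6 of 24 were protein-coding, against 44 of 99 under IL-4-only wide peaks, and the part of this in CpG content was not tested. Counted per window, as the 12.2% is, 2 of the 24 (8.33%) had 10 or more CpG, against 55 of the 99 (55.6%). The IL-4-only peak with the most fragments on such a window lay at a start of Slc39a10, a zinc transporter, with 15 fragments, and its window at chr1:46853569-46853868 on the minus strand, shown for contrast, holds 47 CpG.
Slc39a10: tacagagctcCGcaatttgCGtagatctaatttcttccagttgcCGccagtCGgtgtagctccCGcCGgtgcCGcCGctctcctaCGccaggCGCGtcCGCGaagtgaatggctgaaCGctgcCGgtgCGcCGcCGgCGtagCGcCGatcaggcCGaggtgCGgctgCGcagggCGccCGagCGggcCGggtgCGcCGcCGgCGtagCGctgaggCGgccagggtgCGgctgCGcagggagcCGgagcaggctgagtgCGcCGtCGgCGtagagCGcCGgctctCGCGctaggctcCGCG

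**Figure D1:**
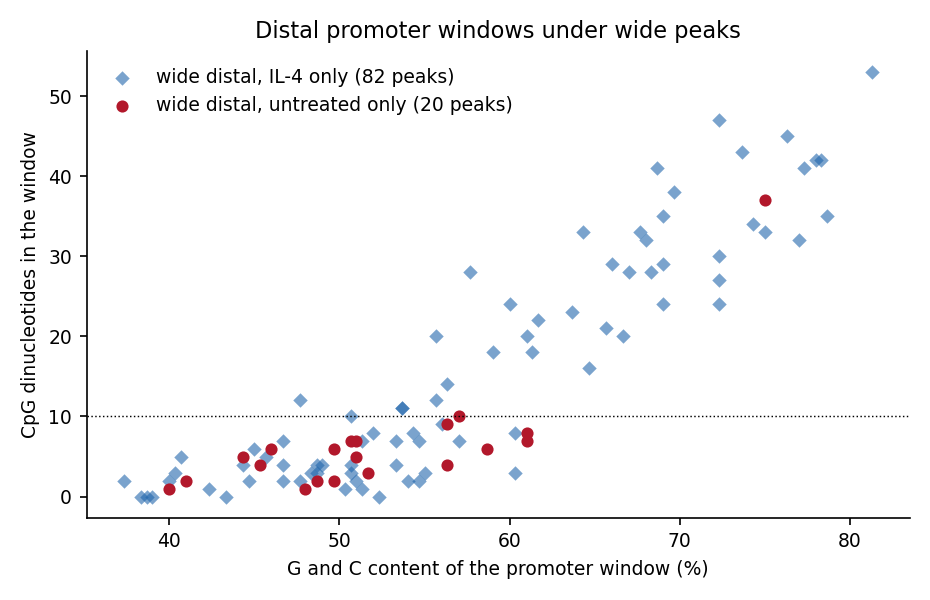
Each point is a peak that overlaps a RefSeq promoter window over 10 kb from protein-coding gene ends, placed by the G and C content (x axis, %) and the CpG dinucleotides (y axis) of its CpG-richest window. Of 20 wide distal untreated-only peaks, 2 reach the dotted line at 10 CpG, against 42 of 82 wide distal IL-4-only peaks.

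Among the letters of macrophage factors, the AP-1 motif (TGANTCA) stood in the windows of 5 of the 20 peaks, those at Akap1 and its neighbouring lncRNA 4930556N13Rik, at Kcnip4, and at the lncRNAs Gm36894, Gm40216 and 1700028M03Rik. Counted per window, it stood in 7 of 24 (29.2%), against 10.2% of all distal windows and 7.85% of all windows. Windows under narrow distal untreated-only peaks held it in 13.9% and those under wide distal IL-4-only peaks in 12.1%. The windows of Akap1 and 4930556N13Rik lie under the same peak, so the share per window counts that peak more than once. The difference was not tested. The E-box CACGTG stood in the windows of 3 peaks and the C/EBP letters TTGCNNAA in those of 2. Counted per window, these were 12.5% and 8.33% of the 24, against 5.11% and 12.9% of all distal windows. The PU.1 letters GAGGAAGT and the palindromic STAT6 motif stood in none, and 3.51% and 8.48% of distal windows held them. Windows under narrow distal untreated-only peaks held them in 1.94% and 9.71%. Those under wide distal IL-4-only peaks held them in 6.06% and 17.2%. These shares were not tested either. Both strands were searched, the E-box reads the same on both, and no motif searched is part of another. A match is a match of letters and not a measured site.

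The wide distal untreated-only peaks were low. Their summits had a median of 6 fragments, with quartiles of 5 and 7, and 743 of 4953 (15%, 14.03 to 16.02) had 8 or more. The narrow distal untreated-only peaks had a median of 5, the wide distal untreated peaks overlapped by an IL-4 peak 7, and the wide distal IL-4-only peaks 5 over their lower background. Median fold enrichment over the authors' local background, a linear ratio from the authors' list, was 3.62 in the untreated-only wide peaks and 3.64 in the IL-4-only wide peaks, both at wide distal positions. A q of at most 0.05 was reached by 1803 of 4953 (36.4%, 35.1 to 37.8), by 13.2% of narrow distal untreated-only peaks and by 14.7% of all untreated peaks on chromosomes 1 to 19. Width chose these peaks, and its part in the higher fragment numbers was not tested.

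**Figure D2:**
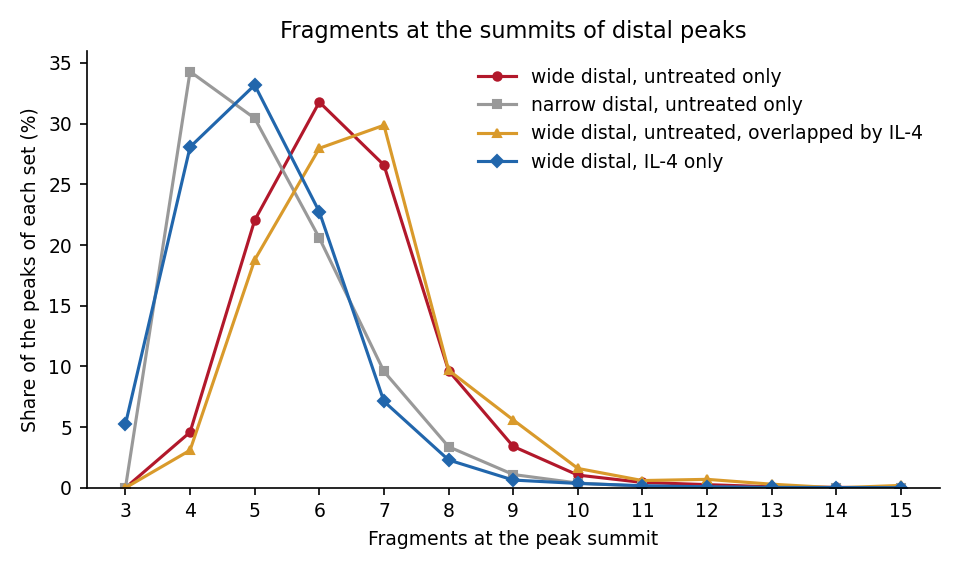
The x axis gives the fragments at the summit and the y axis the share (%) of the peaks of each set, for 4 sets of distal peaks. The wide distal untreated-only peaks are most often at 6 fragments, the narrow ones at 4 and the wide IL-4-only ones at 5. Peaks above 15 fragments are not drawn.

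Most peaks of either list had no counterpart in the other. Among wide distal untreated peaks 83.2% had no IL-4 overlap, among narrow distal ones 92.2%, and among all untreated peaks on chromosomes 1 to 19 91.2%. Wide distal IL-4 peaks lacked an untreated overlap in 88.8%. A distal position was equally common, in 79.5% of wide and 79.1% of all untreated peaks. Although not overlapped, 755 of the 4953 peaks (15.2%, 14.3 to 16.3) had an IL-4 summit within 1 kb, against 17.6% of the narrow set, and 66.1% had an IL-4 summit within 5 kb, against 65.6%.

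Width ran from 400 to 1059 bp with a median of 465 bp, and 2049 peaks (41.4%) were under 450 bp. Peaks of 600 bp up to 700 bp numbered 391 and those of 700 bp or more 165, each with a median of 7 fragments against 6 in the narrower classes. Summits lay in the middle of the interval less often than in narrow peaks: with the interval cut into 3 equal parts, 27.2% (25.9 to 28.4) had the summit in the central part, against 48.6% of the narrow set and 27.5% of the IL-4-only wide set. Several summits within an interval were listed for 59 peaks (1.19%), against 47 of the IL-4-only wide set (0.548%).

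The strongest of these peaks lay at a vomeronasal receptor cluster, outside genes, on chromosome 17 from 23433278 to 23433948. It had 14 fragments (7.65 to 23.5) and a −log10 q of 7.36, and its summit stood 25859 bp away from Vmn2r117, which had the closest gene end. The second, on chromosome 15 from 97281848 to 97282269 inside Pced1b, had 14 fragments and a −log10 q of 6.42. Of the first 10 by −log10 q, 8 lay outside protein-coding genes.

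Peaks of 13 fragments at a −log10 q of 6.28 stood 176626 bp from an end of Calb1, the calcium-binding protein calbindin, 162674 bp from S1pr1, a receptor for sphingosine 1-phosphate, and 1212530 bp from 1700009N14Rik. Peaks of 12 fragments stood 108005 bp from Gabrb2, a GABA receptor subunit, 148619 bp from Sec16b, 598620 bp from Ctnna3 and 29985 bp from Egflam. The last of the 10, inside Rnf165 on chromosome 18, had 13 fragments over a higher background of 1.27 and a −log10 q of 4.80. The Egflam peak had an IL-4 summit 439 bp away and the 1700009N14Rik peak 757 bp away, while the nearest IL-4 summit to the Vmn2r117 peak was at 23011 bp.

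The widest peaks were not the strongest. The widest, 1059 bp on chromosome 1 from 50714569 to 50715627, lay 185476 bp from Tmeff2 with 6 fragments. Those inside Edar, a receptor of skin appendage development (1045 bp), Hmcn2 (1042 bp) and Lrp8, a receptor for reelin (1005 bp), had 6, 7 and 6 fragments, and one of 1003 bp near Clnk had 6. Their −log10 q was between 0.881 and 1.32.

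The peaks just inside and just outside the rule resembled each other. At a width of exactly 400 bp there were 49 distal untreated-only peaks and at 399 bp 53. The 3 of highest q at 400 bp, near Smad1, inside Grm7 and near Scfd1, had 9, 9 and 10 fragments, and the 3 at 399 bp, near Lrrn1, near Fsip2 and inside Gmds, had 9, 8 and 8. By distance, the nearest peaks inside the rule, at Slc25a13 (10001 bp), Fam53a (10016 bp) and Mindy3 (10018 bp), had 5, 6 and 5 fragments. Those outside it, at Ccnc (9987 bp), Tead4 (9982 bp) and Anp32a (9972 bp), had 6, 5 and 6. Among wide distal peaks left out for an IL-4 overlap, those with the shortest overlaps, of 1, 1 and 2 bp, lay near Pabpc6 with 12 fragments, near Hhipl2 with 5 and near Nmur2 with 7.

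A protein-coding gene held 2035 of the 4953 peaks (41.1%, 39.7 to 42.5), and the remaining 2918 lay outside protein-coding genes. Wherever peaks are said to lie inside or outside genes, protein-coding genes are meant. The shares were 39.9% for narrow distal untreated-only, 39.2% (36.2 to 42.2) for wide distal untreated peaks overlapped by IL-4 and 42.2% (41.2 to 43.3) for wide distal IL-4-only peaks. Gene interiors make up 37.2% of the distal genome, the 1886 Mb of chromosomes 1 to 19 more than 10 kb from any gene end, so all 4 shares stand somewhat above it. The interval of the untreated-only wide share includes the narrow and the IL-4-only values, and the shared value and the share of sequence lie below it.

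Host genes were long, as the distance rule requires, since a summit over 10 kb from both ends needs a gene over 20 kb. The median host of a wide distal untreated-only peak was 233 kb, with quartiles of 112 and 462 kb, against 231 kb for the narrow set, 201 kb for the wide peaks overlapped by IL-4 and 212 kb for the IL-4-only wide set. Weighted by bases, the gene interiors themselves had a median host length of 225 kb. Hosts of 500 kb or more held 472 of the 2035 peaks (23.2%, 21.4 to 25.1), against 23.9% of hosted narrow peaks. Host length therefore differed little between these peaks, narrow peaks and the sequence open to them.

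A total of 1353 genes held at least 1 peak, of 9270 genes with an interior. The share with a peak was 2.73% for genes of 20 to 50 kb, 29.1% at 100 to 200 kb, 78.3% at 500 to 1000 kb and 94.5% (52 of 55) at 1000 kb or more. A single peak was found in 955 genes, 2 in 241 and 3 or more in the rest, up to 8. Overlapping genes held 9 of the peaks, each counted once, for the longest gene.

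**Figure D3:**
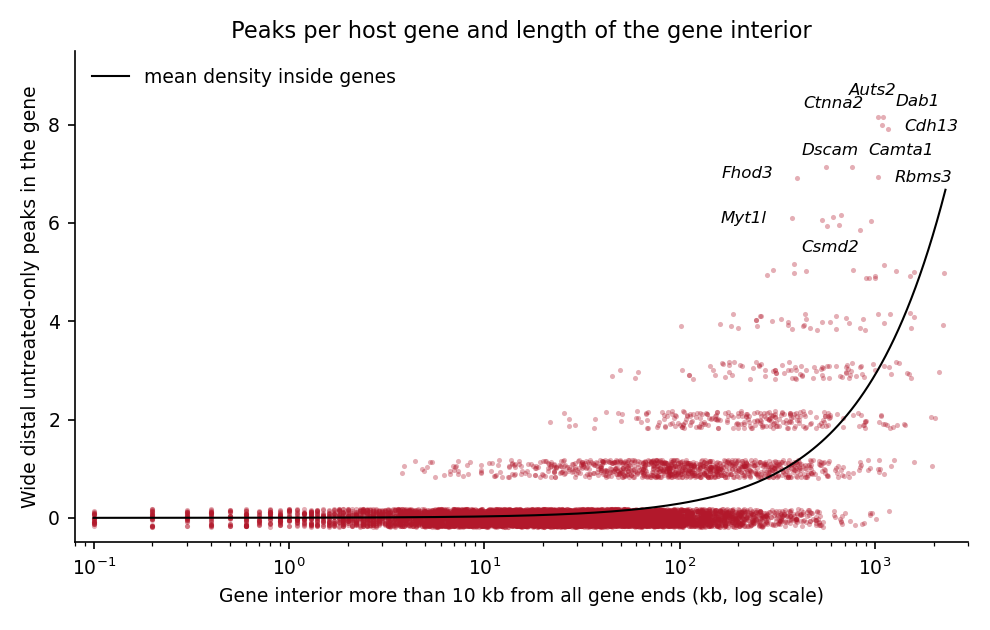
Each point is a protein-coding gene of chromosomes 1 to 19, with the length of its interior (x axis, kb, log scale) and the number of wide distal untreated-only peaks in it (y axis, spread slightly for visibility). The line is the mean density inside genes, 2.90 per Mb, and the 10 named genes hold 6 to 8 peaks each, with 6 further genes at 6 peaks left unnamed.

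The 10 genes with most peaks, with ties broken by the shorter gene, were 396 to 1185 kb long. Ctnna2, the neuronal α-catenin that links cadherins to actin, held 8 peaks of 9, 9, 7, 7, 6, 6, 6 and 4 fragments in 1098 kb on chromosome 6. Auts2, a regulator of neuronal development, held 8 of 5 to 9 fragments, Dab1, the adaptor of reelin signalling, 8 of 4 to 8, and Cdh13, the GPI-anchored T-cadherin, 8 of 5 to 9. No single peak in Ctnna2, Auts2, Dab1 or Cdh13 exceeded 9 fragments, so their counts come from several low peaks.

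With 7 peaks each followed Fhod3, a formin that assembles actin filaments, Dscam, an adhesion molecule of neurons, Camta1, a calmodulin-binding transcription activator, and Rbms3, an RNA-binding protein. Myt1l, a neuronal transcription factor, and Csmd2 held 6, as did the longer genes Slit3, Grip1, Ptprg, Arhgap26, Erc2 and Sdk1. Among these 10 genes Fhod3, at 425 kb, and Myt1l, at 396 kb, were the densest, with 17.6 and 15.97 peaks per Mb of interior against 2.90 for gene interiors overall. In the same genes the wide distal IL-4-only peaks numbered 2 in Ctnna2, 7 in Auts2, 9 in Dab1, 8 in Cdh13, 3 in Fhod3, 4 in Dscam, 6 in Camta1, 6 in Rbms3, 2 in Myt1l and 2 in Csmd2. The genes were ranked by their untreated-only counts, so densities above 2.90 and lower IL-4-only counts in them are not results.

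Among genes with 2 or more peaks, the densest were short ones with little interior: Slc41a3, with peaks of 7 and 6 fragments in 41.7 kb, of which the first overlaps the window shown above, Iqcf3 (7 and 4), Wt1, a transcription factor of kidney and gonad (8 and 8), Bcl7c, a subunit of the BAF chromatin remodelling complex (7 and 6), and Lrig3 (7 and 6). Their densities, 68.7 to 92.2 per Mb, rest on 2 peaks each.

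Genes of the PHLPP and AKT pathway held 6 of the peaks, in 6 of 24 genes with an interior. Akt2, an isoform of the kinase that PHLPP1 acts on, had the strongest, with 10 fragments (4.80 to 18.4), and it spanned chr7:27625608-27626066 with 3.41 as its −log10 q. Inpp5d, the lipid phosphatase SHIP1 that opposes PI3K signalling, had 7, the transcription factor gene Foxo1 and the kinase gene Gsk3b, both downstream of AKT, had 6 each, and Prkcb, a protein kinase C gene, had 5. Phlpp1, Phlpp2, Mtor and Rictor held none, and Prkca, with 0.3905 Mb of interior, held none either, beside 42 narrow peaks.

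The density of these pathway genes, 2.46 per Mb (0.902 to 5.35), has an interval that includes the 2.90 of all gene interiors. The macrophage list, with 0.727 Mb of interior in 13 genes, held 1 peak, of 5 fragments in Adgre1, the gene of the macrophage surface protein F4/80. The alternative activation and IL-4 receptor list, with 0.622 Mb in 14 genes, held 0, for which a limit of 3 counts allows up to 4.82 per Mb. Those 14 genes, among them Pparg, Jak1, Stat3 and Mrc1, held 30 narrow distal untreated-only and 6 wide distal IL-4-only peaks. At these interior lengths a lower density than that of other genes was not detectable.

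The long genes of synapse and neuronal adhesion were not denser than other gene interiors. The 44 genes of this list held 109 peaks in 49.7 Mb of interior, 2.19 per Mb (1.80 to 2.64), below the 2.90 (2.78 to 3.03) of all gene interiors and near the 2.37 of hosts of 1000 kb or more, and 40 of the 44 held at least 1. Cdh13 and Auts2 led with 8 each, Cntn4, Ptprd, Csmd1, Tenm3, Kcnip4 and Rbfox1 had 5, and Ntm, Adgrl3, Grik2 and Cntnap5b had 0. The 19 long genes of chromosomal fragile sites, 3 of which stand in both lists, held 57 peaks, 2.49 per Mb (1.89 to 3.23). Of the distal untreated-only peaks in the 2 lists 4.07% and 4.82% were wide, against 4.6% over all distal untreated-only peaks.

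Density varied with the setting of the peak. Inside genes it was 2.40 per Mb (2.004 to 2.85) in hosts of 20 to 50 kb, 3.19 (2.91 to 3.48) at 100 to 200 kb, 3.16 (2.92 to 3.42) at 200 to 500 kb and 2.37 (2.03 to 2.75) in hosts of 1000 kb or more. Outside genes it was 2.43 (2.27 to 2.60) within 50 kb of a gene end, 3.14 (2.89 to 3.41) at 50 to 100 kb, and 1.74 (1.56 to 1.93) beyond 500 kb. Intermediate hosts and intermediate distances thus had the most peaks per Mb, and gene deserts the fewest per Mb.

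Narrow untreated-only peaks followed a similar but flatter course, from 63.0 per Mb in hosts of 200 to 500 kb to 39.9 beyond 500 kb from genes. The wide share of distal untreated-only peaks was 5.12% (4.70 to 5.58) in hosts of 100 to 200 kb and 5.09% (4.70 to 5.52) at 50 to 100 kb outside genes, and 4.11% (3.79 to 4.45) at 200 to 500 kb outside. IL-4-only wide peaks differed at the short end: hosts of 20 to 50 kb had 5.37 per Mb against 4.55 over the distal genome, and there were 2.24 of them per untreated-only wide peak in such hosts against 1.66 in hosts of 1000 kb or more. Over all distal sequence that ratio was 1.73. The libraries differ in background, so the ratio itself carries no direction.

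**Figure D4:**
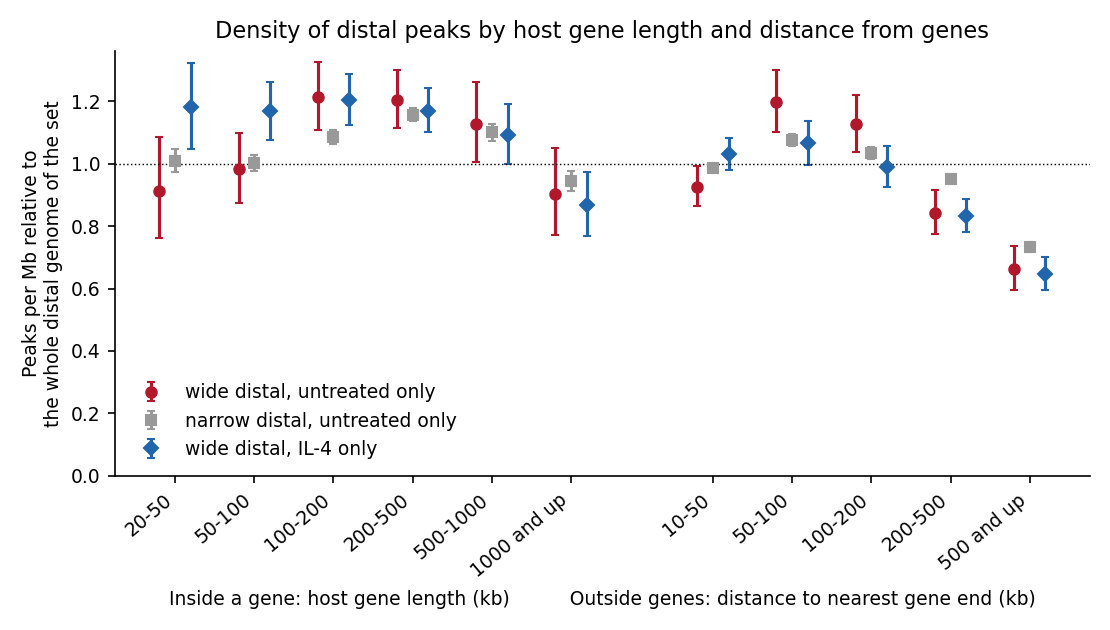
Peaks per Mb divided by the set's own density over the whole distal genome (y axis), by host gene length on the left and by distance from the nearest gene end on the right (x axis, kb); bars are exact Poisson 95% intervals for counting error. The wide distal untreated-only peaks stand above 1 in hosts of 100 to 1000 kb and at 50 to 200 kb from genes, and lowest beyond 500 kb.

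The peaks farthest from genes lay in deserts of chromosomes 18 and 2. The farthest, on chromosome 18 from 28195282 to 28195733, was 2070159 bp from Pik3c3, with 6 fragments. Another 3 of the 5 farthest lay on chromosome 18 between 27704533 and 28266715, with 4, 6 and 5 fragments, and 1 lay on chromosome 2, 1962838 bp from Iftap, with 7. In all, 383 peaks (7.73%, 7.02 to 8.51) were over 500 kb from any gene end, against 8.57% of narrow and 7.67% of IL-4-only wide peaks.

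Across chromosomes the density ran from 2.13 per Mb (1.85 to 2.43) on chromosome 14 to 3.18 (2.84 to 3.55) on chromosome 8, with 3.14 (2.74 to 3.57) on chromosome 18. Chromosome 1 held the most peaks, 440. IL-4-only wide peaks per untreated-only wide peak numbered 1.396 on chromosome 18 and 1.94 on chromosome 13, the lowest and the highest of the 19. Chromosome 18 was dense in untreated-only wide peaks, while IL-4-only wide peaks stood at 4.38 per Mb there against 4.55 over the distal genome. Narrow distal IL-4-only peaks stood at 89.6 per Mb there against 85.7. This chromosome was singled out for its ratio, and these differences were not tested.

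The peaks were spread over nearly all of the genome, with mild clustering. Of 2171 windows of 1 Mb with at least 0.5 Mb of distal sequence, 358 held none, 520 held 1, and 200 held 5 or more. Those 200 windows make up 8.89% of the distal genome and hold 24.01% of these peaks, the count that chose the windows, along with 12.1% of narrow untreated-only and 11.7% of wide IL-4-only peaks. Beyond what a constant density would give, the variance of the window counts was 0.189 of the squared expected count, against 0.0991 for the narrow set, 0.116 for the wide IL-4-only set and 0.281 for the wide untreated peaks overlapped by IL-4. With 10 Mb windows the values were 0.0981, 0.0367, 0.0527 and 0.182. The untreated-only wide peaks thus stood above the narrow and the IL-4-only wide sets and below the shared set, and these differences were not tested.

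The fullest window, on chromosome 12 from 29000001 to 30000000, held 11 peaks of 4 to 9 fragments, 6 of them in Myt1l and 3 in Pxdn, a peroxidase of the extracellular matrix. It also held 95 narrow untreated-only and 11 wide IL-4-only peaks. Windows with 10 lay on chromosome 1 from 118000001 to 119000000, with 4 in Gli2, a transcription factor of hedgehog signalling, on chromosome 18 from 75000001 to 76000000, with 3 each in Ctif and Zbtb7c, and on chromosome 11 from 64000001 to 65000000, with 2 in Hs3st3a1. The IL-4-only wide counts there were 9, 2 and 6. The fifth, with 9 on chromosome 7 from 131000001 to 132000000, had 1 in Dmbt1 and the others outside protein-coding genes. It is among 6 windows with that number.

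At close range there was little clustering. The median distance to the nearest other member of the set was 132 kb, with quartiles of 48.9 and 298 kb. Within 100 kb of a wide distal untreated-only peak there were on average 0.579 others, and within 100 kb of a narrow one 0.539 wide ones, a ratio of 1.07. The ratio was 1.05 at 50 kb, 0.995 at 10 kb and 0.623 at 2 kb, where only 32 peaks had a neighbour and intervals of 400 bp or more cannot overlap. For wide and narrow IL-4-only peaks the ratio was 1.03 at 100 kb and 0.902 at 10 kb. Joining peaks with gaps of up to 50 kb left 3699 (74.7%) alone, 488 pairs, 79 groups of 3, 9 of 4 and 1 of 5.

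The group of 5 spanned 97.1 kb outside genes on chromosome 9 from 74302806 to 74399907, with Wdr72 as the nearest gene and 7, 6, 6, 5 and 6 fragments. No wide distal IL-4-only peak and 8 narrow untreated-only peaks lay in this span. Of the groups of 4, the tightest spanned 44.0 kb inside Zfp423, a zinc-finger transcription factor, with 5, 6, 7 and 8 fragments. Another lay inside Ryr1, the calcium release channel of skeletal muscle, with 6, 5, 5 and 8 fragments. A further group, with 6, 8, 5 and 8 fragments, had 1 peak inside 4930444P10Rik and the others outside genes, with 4930444P10Rik as the nearest gene. Of the 10 groups of 4 or 5, 6 spans held no wide distal IL-4-only peak, these 4 among them. The spans near Gli2 and Tfcp2l1, near Cryba4, and near Bub3 and Gpr26 held 1 each, and that near Cd109 held 2. Wide distal IL-4-only peaks number 4.55 per Mb over the distal genome, and these spans are 44.0 to 105.9 kb long. The groups were also chosen by their untreated-only peaks, so spans without a wide distal IL-4-only peak are not a result.

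**Figure D5:**
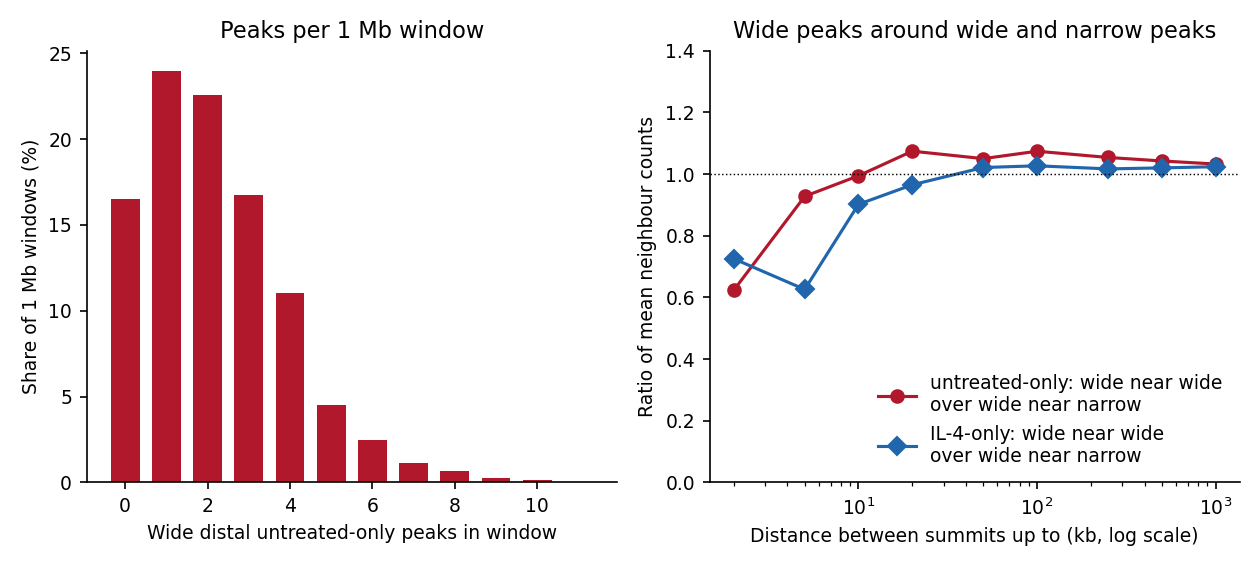
Left, the share of 1 Mb windows (y axis, %) by the number of wide distal untreated-only peaks they hold (x axis). Right, the mean number of wide peaks near a wide peak divided by that near a narrow peak of the same list (y axis) within a distance of summits (x axis, kb, log scale); from 20 kb on the untreated-only ratio is between 1.03 and 1.07.

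Across 234 windows of 10 Mb, the density of these peaks had a Pearson correlation of 0.755 with narrow distal untreated-only peaks, of 0.738 with narrow distal IL-4-only peaks, of 0.644 with wide distal IL-4-only peaks and of 0.414 with the wide distal untreated peaks overlapped by IL-4, the smallest set. These are descriptions over windows of 1 genome, which share sequence and gene content, and carry no p-value.

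Inside Sfi1, a gene for a centrosome protein on chromosome 11, 3 of the peaks stood apart from all others. They had 74, 75 and 54 fragments, but over local backgrounds of 42.7, 39.9 and 37.1, so that the authors' fold enrichment was 1.72, 1.86 and 1.44. Outside Sfi1 no member exceeded 14 fragments or a background of 2.18. The untreated list had 38 peaks inside this gene of 71.5 kb, with backgrounds of 8.78 to 49.6, and 27 of them were overlapped by an IL-4 peak. The IL-4 list had 31 peaks there. The nearest IL-4 summits to the 3 members were 1884, 1527 and 845 bp away.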

How the data were processed

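PHLPP1 CUT&Tag was done on 1 untreated and 1 IL-4 library. Per the submitters' processing notes, the tools were MACS2 2.2.7.1, Bowtie 0.12.8 and DiffBind, in no stated role, and the build was mm10. The sources used here do not give the control, duplicate handling or fragment size. The authors deposited a narrowPeak list per library, so peaks were called per library, with a fold enrichment (a linear ratio), −log10 p and −log10 q for each peak. The deposited score equals −log10 p times 10 without decimals. The lowest deposited −log10 p was 2.002 in the untreated and 2.001 in the IL-4 list.

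Entries of the same interval (203 untreated, 654 IL-4) were reduced to the summit of highest −log10 q. Fragments and background were solved from the deposited fold, taken as (fragments + 1)/(background + 1), and −log10 p, the upper Poisson tail, with a whole number within 0.01 for 100% of peaks. Total reads per library are unknown, so low fragment numbers set the precision. Genes came from RefSeq GRCm38.p6, which gives 20661 protein-coding genes on chromosomes 1 to 19. The host is the longest gene holding the summit. Lengths of distal sequence were measured on a 100 bp grid between the first and last peak of each chromosome. Only autosomes were used, per the rule.

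The named peaks are the 10 of highest −log10 q, the 5 widest, the 5 farthest from genes, the 10 genes with most peaks, the 5 densest genes with 2 or more, the 5 fullest 1 Mb windows, those nearest each threshold and those in genes of the lists. Lists covered synapse, fragile-site, macrophage, alternative activation and PHLPP and AKT genes. Some list genes are not reported here. For the long-gene lists only the leading genes and those with 0 are named. Peak groups, Sfi1 and the printed promoter windows were chosen after their values were seen. The members and lists were chosen with earlier results of these data known. Python 3.11.15, numpy 2.4.6, scipy 1.17.1, pandas 2.3.3 and matplotlib 3.10.9 were used. The functions were tested on simulated data. Alternatives changed width, distance, q, overlap, window size and background.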

Additional observations from a re-analysis of the deposited data

How the results depend on the processing

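The share inside genes, the median host length and the median fragment number moved little when width, overlap or q was changed, and the number of peaks followed the thresholds. It was 15074 at 300 bp or more, 1718 at 500 bp or more, 3092 beyond 50 kb from gene ends and 1803 at a q of at most 0.05, and 3872 to 5765 in the other settings. Distance decides the host: beyond 5 kb 42.5% lay inside genes with a median host of 193 kb, and beyond 50 kb 32.8% with 409 kb, since the rule then needs longer genes. The median was 7 fragments at a q of at most 0.05 and 6 otherwise. The excess variance of 1 Mb windows was 0.166 and 0.154 at 300 and 500 bp, 0.148 at that q, 0.168 with no IL-4 peak within 1 kb, 0.201 where only an overlap of 50% of the interval counted as shared, and 0.205 where only IL-4 peaks at a q of at most 0.05 counted. It was 0.238 in 0.5 Mb and 0.163 in 2 Mb windows. The cause of these differences was not tested. Leaving out the 4 peaks of high background, a setting chosen after seeing the data, left 4949 peaks, 41.06% inside genes, a median host of 233 kb, an excess variance of 0.189 and a median of 6 fragments. No paired analysis was possible because each group has 1 library.

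With summits of 4 to 14 fragments outside Sfi1, single peaks carry wide counting intervals (2.202 to 13.1 for 6 fragments), and no replicate bears on their presence in 1 list only.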

Other observations

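A lncRNA gene body was overlapped by 560 of 4953 (11.3%, 10.5 to 12.2), against 10.7% of narrow distal untreated-only and 11.0% of wide distal IL-4-only peaks. A pseudogene was overlapped by 51 (1.03%, 0.784 to 1.35), against 0.969% and 0.897%. A lncRNA end lay within 1 kb of the summit of 102 (2.06%, 1.70 to 2.49), against 2.65% (2.33 to 3.01) of wide distal IL-4-only peaks. A transfer RNA gene was overlapped by 0 of 4953, and by 4 of the 8580 wide distal IL-4-only peaks. Small nuclear or nucleolar RNA genes were overlapped by 2 (0.0404%, 0.0111 to 0.147), against 12 of the wide distal IL-4-only peaks (0.14%, 0.0800 to 0.244).

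A microRNA gene of the RefSeq annotation was overlapped by 3 of the 4953 peaks (0.0606%, 0.0206 to 0.178), each inside a protein-coding host, against 10 of 102675 narrow distal untreated-only peaks (0.00974%, 0.00529 to 0.0179). The wider intervals cover more sequence each, and its part in the difference was not tested. Of the 3, only the Mir7687 peak overlapped a hairpin listed in the RefSeq sequence table. The peak over Mir669e and Mir669f, of the microRNA cluster inside Sfmbt2, had 7 fragments (2.81 to 14.4) on chromosome 2 from 10467244 to 10467669. That over Mir7687, inside Gse1, had 7 on chromosome 8 from 120538638 to 120539048, and that over Mir6239, inside Gpc6, had 5 on chromosome 14 from 117953673 to 117954076. No wide distal IL-4-only peak overlapped a microRNA gene. These genes were named after their values were seen.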
